A study of Mus musculus with 4 samples.

Results

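Homeobox genes outside the Hox clusters encode transcription factors with a homeodomain, and 53 of them, from the Dlx, Irx, Lhx, Lmx, Nkx, Pitx, Otx, Msx, Emx, En, Barhl, Meis, Pbx, Cdx, Evx and Six-type families, were followed in a list of Zeb1 peaks from mESC. A peak belonged to a gene when the authors' list named that gene for it. By this rule 52 of the 53 genes had a peak, and together they had 111 of the 17435 peaks. The peaks came from ChIP-seq in mESC-D3 cells kept without feeders, at passages p5-p8. The cells grew in GS, a serum-free N2B27 medium with 1 μM PD0325901 (an inhibitor of MEK), 3 μM CHIR99021 (an inhibitor of GSK-3) and 20 ng/mL LIF. The Zeb1_ChIP group had 3 libraries made with 8 μg of the H-102 antibody against Zeb1, and the Input group had 1 library of chromatin without antibody, with cross-linking in 1% formaldehyde and fragments of about 200 bp for all. The list gives 1 authors' mean per peak for treatment reads, input reads and enrichment over input, with no value per library, so no SD and no test accompanies a value. It holds no expression values, so the cell type was not checked against marker genes.

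The homeodomain is a fold of helices of which one enters the major groove of DNA and reads the base sequence. Outside the Hox clusters these factors set up brain regions, eye, pituitary, limb, heart and gut, and in pluripotent cells most of their genes are silent or nearly so, with CpG-rich promoters under Polycomb control. Zeb1 is a zinc finger and homeodomain-like repressor best known for driving the epithelial to mesenchymal transition, and it recognizes E-boxes with the core CACCTG.

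The sequences of 9 peak regions are given here because they come from the 5 peaks with the highest enrichment (Nkx6-1, Pitx1, Barhl2, Otx1 and Irx1), from genes with the most matches to CACCTG per kb (Dlx4, Six5 and Lmx1b), or, for comparison, from the TSS of Barhl2. They are forward strand sequences of 120 bases in mm10 (GRCm38), outside UTRs, with each CACCTG or its reverse complement CAGGTG in capitals. The Lmx1b window, chr2:33617138-33617257, was in an intron and held 5 matches, the most of any window. Six5 (chr7:19096959-19097078) had 61 bases of its window in a coding exon, and the Dlx4 window (chr11:95201935-95202054) was outside genes. Windows of Nkx6-1 (chr5:101312739-101312858), Otx1 (chr11:21907152-21907271) and Irx1 (chr13:71491840-71491959) lay outside genes, in peaks annotated to the LINE-1 element L1Md_T. The Barhl2 upstream window (chr5:106458173-106458292) was centred 66 bp before the TSS. The windows of Pitx1 (chr13:55826069-55826188) and of Barhl2 at its last exon (chr5:106453440-106453559) were wholly coding, and the peaks around them held no match.
Lmx1b: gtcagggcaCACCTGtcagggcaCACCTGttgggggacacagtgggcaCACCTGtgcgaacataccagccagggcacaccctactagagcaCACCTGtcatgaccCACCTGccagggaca
Six5: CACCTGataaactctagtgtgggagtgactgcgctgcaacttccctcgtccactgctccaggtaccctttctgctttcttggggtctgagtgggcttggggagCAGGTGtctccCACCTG
Dlx4: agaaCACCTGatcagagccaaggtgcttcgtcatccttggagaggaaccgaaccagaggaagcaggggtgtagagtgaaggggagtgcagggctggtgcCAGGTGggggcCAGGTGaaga
Nkx6-1: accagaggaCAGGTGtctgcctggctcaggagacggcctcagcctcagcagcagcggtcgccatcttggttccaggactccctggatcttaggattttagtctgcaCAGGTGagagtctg
Otx1: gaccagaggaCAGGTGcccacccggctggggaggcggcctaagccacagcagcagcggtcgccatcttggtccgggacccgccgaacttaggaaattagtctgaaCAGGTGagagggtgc
Irx1: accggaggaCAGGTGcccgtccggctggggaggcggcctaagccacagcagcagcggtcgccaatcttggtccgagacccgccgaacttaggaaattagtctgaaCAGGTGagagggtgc
Barhl2 upstream: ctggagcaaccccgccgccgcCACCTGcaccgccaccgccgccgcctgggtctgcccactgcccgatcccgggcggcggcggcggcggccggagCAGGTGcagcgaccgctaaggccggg
Pitx1: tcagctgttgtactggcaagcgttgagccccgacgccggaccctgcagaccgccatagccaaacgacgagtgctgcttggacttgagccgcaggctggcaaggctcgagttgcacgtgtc
Barhl2 last exon: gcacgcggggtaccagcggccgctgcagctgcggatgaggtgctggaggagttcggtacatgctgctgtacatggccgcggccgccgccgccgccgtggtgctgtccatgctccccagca

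Zeb1 peaks were present at nearly all of the homeobox genes. Of the 53 genes, 52 (98.1%) had at least 1 assigned peak, where the share among 21000 protein-coding genes of the reference was 53.3%. An assigned peak centred within 5 kb of the TSS, the authors' limit for a promoter, was found for 46 genes (86.8%), against 45.1% of all protein-coding genes. Counting any peak centre within 5 kb of a TSS, whatever gene it was assigned to, gave 48 genes, against 51.5%. A peak over the gene with 5 kb on either side was found for 49 genes, against 58.8%. Homeobox genes often have CpG-rich starts. In 38 of the 53 the ratio of observed to expected CpG was at least 0.6 within 500 bp of the start of the gene record. For some genes, among them Lhx4, Nkx2-2 and Six3, that start lay several kb from the TSS used for the peaks, so the classes are approximate. Of these 38, 33 had a promoter peak, where the share over all 9346 genes with such a start was 69.8%. Of the 15 genes without a CpG-rich start, 13 had a promoter peak, against 25.2% of all such genes. In both classes so defined, the members' share was above that of all genes. With 15 genes in 1 class and the classes approximate, the difference between the classes was not interpreted.

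**Figure D1:**
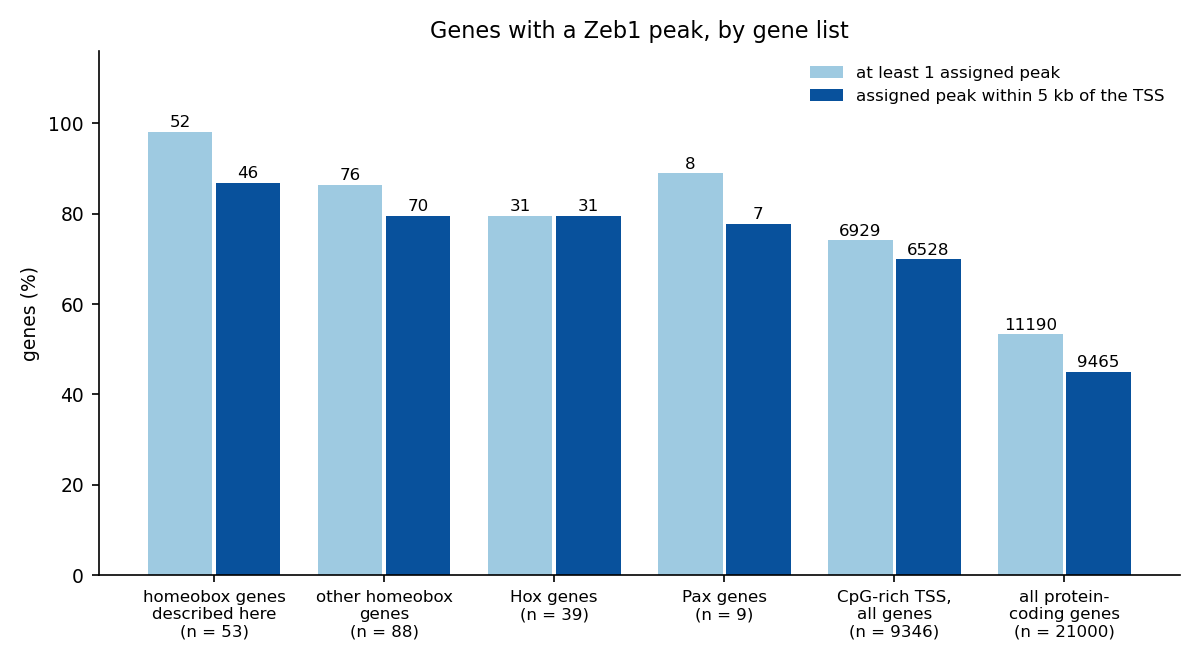
Bars give the percentage of genes in each list with at least 1 assigned Zeb1 peak (light) and with one centred within 5 kb of the TSS (dark), and the number above a bar is the count of genes. The 53 homeobox genes described here stand at 98.1% and 86.8%, and all protein-coding genes at 53.3% and 45.1%. The class labelled CpG-rich TSS was taken at the start of the gene record, which for some genes lies away from the TSS.

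Other homeobox genes of the mouse had assigned peaks less often than these 53 but more often than genes at large, and the order depended on the way of counting. Members and lists were chosen with earlier results of these data known, so the order is a description only. Of 88 other non-Hox homeobox genes found in the reference, 76 had an assigned peak and 70 a promoter peak. Among the 39 Hox genes, which specify position along the body axis, 31 had an assigned peak, in each case within 5 kb of the TSS. Counted by peaks over the gene with 5 kb flanks, whatever the assignment, Hox genes stood as high as the 53, with 37 of 39. Of the 9 Pax genes, which encode paired-domain factors, 8 had an assigned peak and 7 a promoter peak. Peaks per gene also differed between the lists, with means over genes with a peak of 2.13 for the 53 genes, 2.01 for the other homeobox genes, 2.75 for Pax and 1.35 for Hox. The mean was 1.41 over all protein-coding genes with a peak. The Hox genes are short and closely spaced, and a peak is assigned to 1 gene alone. The part of this in their mean was not tested.

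Most of the homeobox genes had several peaks. There were 30 genes with at least 2 peaks among the 52 with a peak, where 26.5% of all genes with a peak had at least 2. Some of these peaks lay close together, and merging peaks closer than 1 kb turned the 111 into 97. Genes with several peaks were not recounted after merging. A single peak was assigned to 22 genes, 2 peaks to 16 genes, 3 peaks to 8 and 4 or more to 6. The 6 genes with the most peaks were Barhl2 and Lhx5 with 7 each, Irx1 with 6, Lhx2 with 5, and Lmx1b and Nkx6-1 with 4 each. Peaks covered much of these loci. Over a gene with 5 kb on either side, the median share of bases inside a peak was 27.0% for the homeobox genes with such a peak and 6.80% for all protein-coding genes with one. High coverage was shared with Hox genes (33.3%) and the other homeobox genes (18.2%) but not with the longer Pax genes (8.00%). The homeobox genes are short, with a median length of 8532 bp against 17742 bp for all, and the part of gene length in this difference was not tested. The most fully covered loci were those of Otx1 (73.4%), Irx5 (71.0%), Irx3 (55.6%), Lhx5 (54.0%) and Barhl2 (52.7%).

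**Figure D2:**
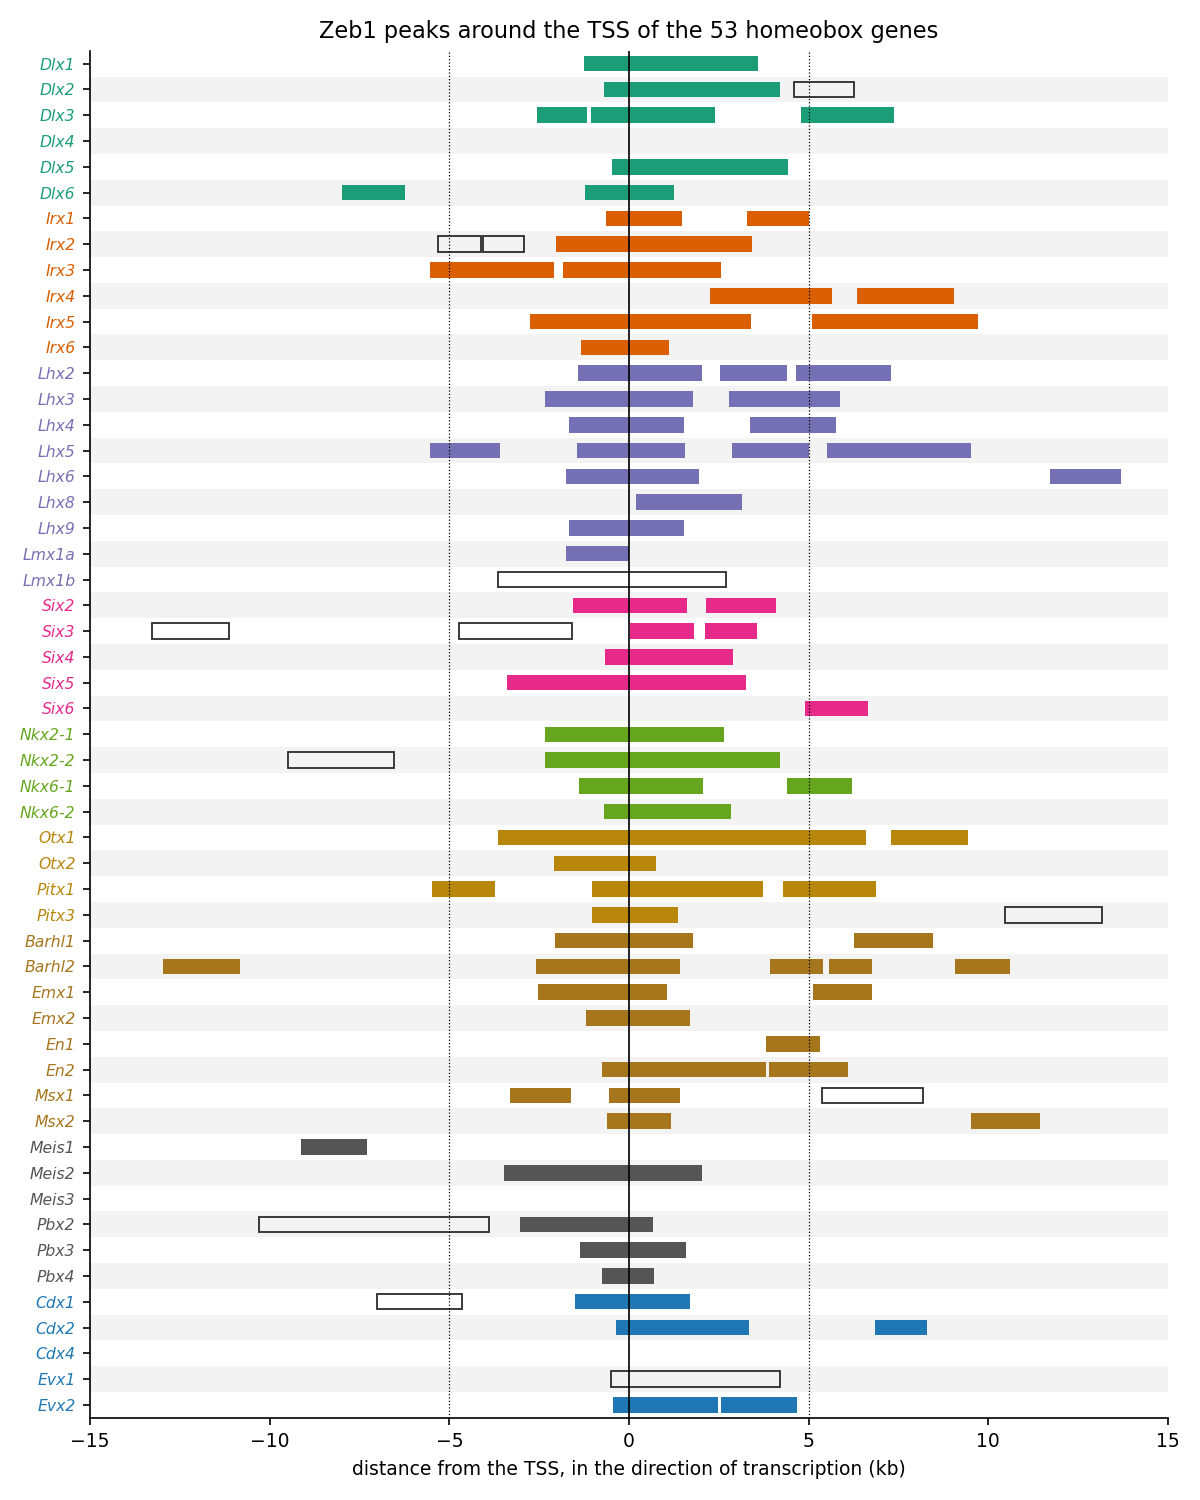
Each row is 1 of the 53 genes, colored by family, and each block is a Zeb1 peak drawn to its length at its distance from the TSS in kb, with transcription to the right and dotted lines at 5 kb. Filled blocks are peaks assigned to the gene, at the authors' distance, and open blocks are peaks over the gene or its 5 kb flanks that were assigned to another gene. Blocks farther than 15 kb are not drawn, and the rows of Lhx2, Lhx9 and Meis2 overlay peaks measured from different start sites of 1 gene. Most genes have a block across or just after the TSS, and Dlx4, Meis3 and Cdx4 have none in this range.

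Over all 111 peaks of the homeobox genes the median enrichment was 7.10, against 6.50 for the whole list, with 55.1 treatment reads against 47.4, a length of 2150 bp against 1850 bp and a GC content of 56.0% against 55.5%. The difference in length was seen in promoter peaks, which were wide and often centred away from the TSS, since peaks beyond 5 kb had a median of 1675 bp against 1650 bp. Related lists had peaks as long or longer, with medians over all their peaks of 2750 bp for Hox, 2325 bp for Pax and 2150 bp for the other homeobox genes. The 63 promoter peaks of the homeobox genes had a median length of 3000 bp, against 1950 bp for all 10698 promoter peaks. At least 3000 bp were spanned by 32 of the 63 (50.8%), against 13.5% of all promoter peaks, and 22.2% reached 4000 bp, against 5.04%. Their centres lay farther from the TSS, with 54.0% within 1 kb, against 85.0% of all promoter peaks. Of the 63, 45 were centred downstream of the TSS (71.4%, against 74.8% of all). The authors' mean of treatment reads was higher in these peaks, with a median of 73.8 against 52.6. Per kb of peak the order was the other way, at 25.2 treatment reads for the homeobox genes and 26.8 for all promoter peaks. Input reads per kb were 6.66 against 8.33, and the median enrichment over input was 7.79 against 6.74. At an enrichment of at least 10 for the best promoter peak there were 15 of the 46 genes, against 14.2% of all genes with a promoter peak. The other homeobox genes were similar, with 21 of 70, while Hox had 4 of 31 and Pax 1 of 7. Of the 46 genes, 15 had at least 2 promoter peaks, and the part of this in the best value was not tested.

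**Figure D3:**
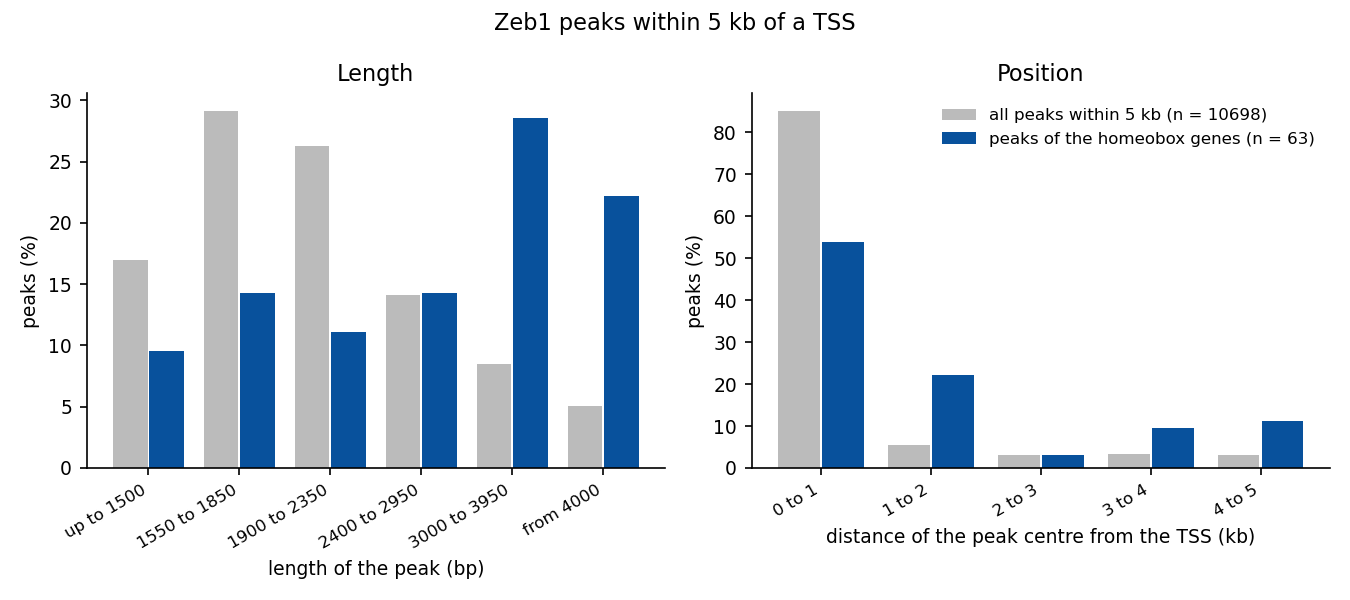
Bars give the percentage of peaks centred within 5 kb of a TSS in classes of peak length in bp (left) and of distance between peak centre and TSS in kb (right), for all 10698 such peaks (grey) and for the 63 of the homeobox genes (blue). Lengths in the list are multiples of 50 bp. The classes from 3000 bp up hold 50.8% of the homeobox peaks and 13.5% of all, and the class up to 1 kb from the TSS holds 54.0% and 85.0%.

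Peak centres were spread over the genes and their surroundings. By the curated transcripts of the reference, 31 of the 111 centres were in an intron, 14 in coding sequence, 11 in a 5′ UTR, 6 in a 3′ UTR and 1 in an exon of a noncoding transcript. A further 28 were upstream of the gene and 20 downstream of it. These counts are given without shares over the whole list, so they show no difference from it. The base composition of the promoter peaks was close to that of all promoter peaks, with a median GC content of 58.0% against 56.8% and a median CpG ratio of 0.616 against 0.643.

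The Irx genes, Iroquois factors that pattern the neural tube, heart and limb, had 17 peaks with a median enrichment of 9.67, and 4 of the 17 were distant LINE-1 peaks. All 6 had a promoter peak, and the median of the best promoter peak per gene was 9.83. Irx5, which acts in the retina and heart, had a peak of 6150 bp across its TSS (chr8:92355051-92361200) with an enrichment of 11.4, from 183 treatment and 29.6 input reads. Irx3, its neighbour and partner in the heart, had 179 treatment reads and 37.9 input reads in a peak of 4400 bp (chr8:91799101-91803500), and an enrichment of 9.70. Both were among the 3 genes with the most treatment reads of the 53. The third gene of that cluster, Irx6, had 1 peak, of 2450 bp, centred 114 bp upstream of the TSS with 113 treatment reads and an enrichment of 9.96. Irx1 had peaks over its coding exons 1 and 2 with enrichments of 12.5 and 12.3, and 4 more beyond 5 kb. Irx2 had 8.99 in a peak of 5450 bp across its TSS, and a pair of small peaks just upstream that were assigned to the noncoding gene Gm20554. Irx4, a gene of the heart ventricle, had no peak at the TSS itself, and its 3 peaks had enrichments of 4.33, 6.48 and 5.69. Its nearest one was centred 3953 bp downstream of the TSS.

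All 6 Irx genes share a match in the homeobox itself, seen after the peaks had been described. In the part that encodes the DNA-reading helix, each of the 6 holds CACCTG, with its last 2 bases in the tryptophan codon TGG. In 3 of them, Irx3, Irx5 and Irx6, a further match stands 2 bases before it. The stretches of 60 bases, all coding, are given on the coding strand with matches in capitals: Irx1 is chr13:71960005-71960064 (minus strand), Irx2 is chr13:72630780-72630839 (plus), Irx3 is chr8:91800509-91800568 (minus), Irx4 is chr13:73267639-73267698 (plus), Irx5 is chr8:92359743-92359802 (plus) and Irx6 is chr8:92677352-92677411 (plus). A peak covered this stretch in 5 of the 6 genes, with Irx6 the exception. These peaks were the ones described above for Irx2, Irx3 and Irx5, the one over exon 2 for Irx1, and for Irx4 the one with an enrichment of 5.69. The letters are fixed largely by the protein, and a match describes the sequence and not a bound site.
Irx1: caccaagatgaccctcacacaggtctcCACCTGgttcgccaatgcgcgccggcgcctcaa
Irx2: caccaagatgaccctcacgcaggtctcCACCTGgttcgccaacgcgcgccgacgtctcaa
Irx3: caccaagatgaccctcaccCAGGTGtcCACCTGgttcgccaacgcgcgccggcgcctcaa
Irx4: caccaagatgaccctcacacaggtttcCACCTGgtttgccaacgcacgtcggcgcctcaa
Irx5: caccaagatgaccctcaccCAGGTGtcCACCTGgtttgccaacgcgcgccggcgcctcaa
Irx6: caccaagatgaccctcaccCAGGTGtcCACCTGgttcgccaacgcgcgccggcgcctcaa

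The Dlx genes, distal-less factors that act in forebrain interneurons, branchial arches and limbs, lie in 3 convergent pairs, and their peaks had a median enrichment of 5.74. Dlx2, a regulator of GABAergic interneurons, stood highest with 14.0 in a peak of 4900 bp that covered the gene (chr2:71542551-71547450), with 151 treatment and 23.6 input reads. Its partner Dlx1 had 115 treatment reads and 36.2 input reads in a peak of nearly the same length, 4850 bp, and an enrichment of 5.89. Together with a peak assigned to Dlx1as, these covered 39.8% of the pair with 5 kb flanks. Dlx5, which shapes the jaw and limb, also had a peak of 4900 bp, with 122 treatment reads and an enrichment of 8.27. Dlx6 had a peak at its TSS with an enrichment of 5.60 and 2 more upstream, one of them 141534 bp away in a LINE-1 element with 8.00. In the remaining pair, Dlx3, a gene of epidermis and placenta, had all 3 of the peaks in the interval of both genes, with enrichments of 4.24, 6.47 and 5.25. Dlx4 had no peak within 5 kb of the gene, and its assigned peak lay 56449 bp upstream with an enrichment of 5.17.

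The Lhx and Lmx genes encode LIM homeodomain factors of the nervous system, pituitary and limb, and all 9 had an assigned peak, 28 in all. Lhx3, which specifies the pituitary and motor neurons, had the highest value of the family, an enrichment of 13.0 in a peak of 3100 bp over coding sequence (chr2:26200701-26203800) with 98.4 treatment and 15.2 input reads. Its close relative Lhx4 had a similar arrangement, with a peak at the TSS (enrichment 6.16, 101 treatment and 31.4 input reads) and one 4577 bp downstream in intron 1 with a higher ratio but fewer reads (12.4, 56 treatment and 8.86 input reads). Lhx5, a gene of the forebrain, had 7 peaks with enrichments between 3.25 and 8.20, of which 3 were within 5 kb. Lhx2, needed for the eye and the cortex, had 5, the highest of them at an internal TSS with 102 treatment reads and an enrichment of 8.53. Lhx8, a gene of cholinergic neurons, had a single peak in intron 1 with an enrichment of 10.5. Lhx6, a gene of cortical interneurons, had 7.79 near its TSS and 8.37 over a coding exon 12710 bp downstream. The peaks of Lhx9, a gene of the gonad, and of Lmx1a, a gene of midbrain dopaminergic neurons, had lower ratios, with highest enrichments of 5.40 and 6.85.

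Lmx1b, which sets the dorsal side of the limb, showed how the assignment can hide a promoter peak. None of its 4 assigned peaks was within 5 kb of the TSS, and the highest, in intron 2 with the sequence given above, had an enrichment of 11.9 and 10 matches to CACCTG. A peak of 6350 bp across its TSS (chr2:33638401-33644750) was assigned to the noncoding gene C130021I20Rik. It had 229.9 treatment reads, more than any peak assigned to the 53 genes, and its enrichment was 9.27 over 49.1 input reads. The same was seen for Evx1, whose only assigned peak lay 22173 bp upstream with an enrichment of 5.46. The peak over the Evx1 TSS (chr6:52313001-52317700) was assigned to 5730457N03Rik, with 152 treatment reads and an enrichment of 7.34. In all, 99 peaks lay over the 53 genes with 5 kb flanks, and 15 of them, at 11 of the genes, were assigned to genes outside the list. The highest enrichments among the 15 were 14.4 at Pitx3, in a peak assigned to Elovl3, and 13.9 at Msx1, in a peak assigned to Msx1os. These neighbours were picked out only once the values were known.

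The Six-family genes, relatives of the fly gene sine oculis with roles in eye, kidney and muscle, had 8 peaks with a median enrichment of 9.36, none of them in LINE-1. The median of the best promoter peak was 12.0 over the 4 genes with one, against 9.83 for the Irx genes. For Six2 that peak was centred 3129 bp from the TSS. Six3, which is required for the forebrain and eye, had 15.3 over its coding exon 1 (chr17:85620851-85622650) with 70.6 treatment and 9.71 input reads. Six2, which maintains nephron progenitors, had 14.9 in a peak over its 3′ UTR with 45 treatment reads, and 9.61 at its TSS with 124. The interval of both genes with 5 kb flanks held 6 peaks, of which 2 were assigned to the antisense gene Six3os1. Six5 had 190.2 treatment reads, the most of any peak assigned to the 53 genes, in a peak of 6650 bp (chr7:19091151-19097800) with 43.1 input reads, an enrichment of 8.01 and 15 matches to CACCTG. Six4, a gene of muscle and kidney development, had 9.10 in intron 1, and Six6, a gene of the eye and pituitary, had 10.8 just past the end of the gene, 5780 bp from its TSS.

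The 4 Nkx genes act in the ventral neural tube and in endoderm, and each had a promoter peak. Nkx6-1, a factor of pancreatic beta cells and motor neurons, had an enrichment of 10.2 at its TSS with 104 treatment reads, and the highest enrichment of all 111 peaks, 23.4, in a LINE-1 element 352211 bp downstream with 62.4 treatment and 6 input reads. Nkx2-1, which specifies thyroid, lung and ventral forebrain, had 12.4 in a peak of 5000 bp over the gene with 118 treatment reads. Nkx2-2, a gene of ventral neural progenitors and pancreatic islets, had one of the 3 longest peaks, 6550 bp, with 125 treatment reads and an enrichment of 7.69. Nkx6-2, a gene of oligodendrocytes, had 142 treatment reads in 3550 bp and an enrichment of 7.80.

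Among the paired-like factors, Pitx1 and Otx1 stood out. Pitx1, which specifies the hindlimb and pituitary, had an enrichment of 19.8 at the end of its gene (chr13:55824551-55827150, centred in the 3′ UTR), with 132 treatment reads and 14.1 input reads. That was the highest enrichment of the 103 peaks outside LINE-1 elements, and its peak near the TSS had 7.27. Otx1, a gene of the cerebral cortex and inner ear, had the longest peak, 10250 bp (chr11:21995051-22005300), with 159.8 treatment and 43.5 input reads and an enrichment of 6.94. Downstream of it Otx1 had a peak with 8.27. Another, in a LINE-1 element 94651 bp from the TSS, had 17.45 from 26.5 treatment and 3 input reads. Otx2, which is required for the anterior neural plate and is active in early epiblast, had 1 peak near a TSS with 59 treatment reads and an enrichment of 8.05. Pitx3, a gene of the lens and of dopaminergic neurons, had 4.80, among the 5 lowest best values of the 52 genes.

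Msx, Emx, En and Barhl genes, which act in craniofacial tissue, cortex, midbrain and sensory organs, all had a promoter peak, and their 19 peaks had a median enrichment of 6.83. Barhl2, a gene of retinal and spinal neurons, had the highest promoter value of the 53 genes, 18.9, in a peak of 1500 bp centred in its last coding exon with 54.6 treatment and 6 input reads. At its TSS the enrichment was 6.50, in a longer peak with 103 treatment reads. Barhl1, a gene of cerebellar granule cells and hair cells of the ear, had 9.26 at the TSS. Emx2, which patterns the cortex and urogenital tract, had 13.8 with 73.8 treatment reads, and Emx1, a gene of the dorsal telencephalon, had 9.10 with 158 treatment reads in a peak of 3600 bp. Msx1, which acts in tooth and palate, had 10.3, and Msx2, a gene of skull and skin, 6.74. En2, a gene of the midbrain and hindbrain, had 8.17 with 127 treatment reads. Its paralog En1 had 5.65 with 29 treatment reads, in a peak centred 4563 bp downstream of the TSS.

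The Meis and Pbx genes encode cofactors that bind DNA together with Hox proteins, and they had the lowest median enrichment of the families, 5.57 over 8 peaks. Pbx3 had the highest value, 12.8, in a peak of 2950 bp across its TSS (chr2:34370451-34373400) with 100.2 treatment and 17.2 input reads and no match to CACCTG. Pbx4 had 5 and Pbx2 5.15, both near the TSS. Meis2 had 2 peaks near its TSSs, with 5.80 and 5.34. Meis1, a gene of blood stem cells and heart, had no peak over the gene or its 5 kb flanks, and its peaks were centred 8206 bp upstream (enrichment 7.20) and 147394 bp downstream (6.95). Meis3 had the lowest best enrichment of the 52 genes, 3.91, in a peak 16450 bp upstream.

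The Cdx genes, caudal factors of the gut and posterior body, and the Evx genes, relatives of even-skipped, gave mixed results. Cdx2, which also defines the trophectoderm, had 8.28 with 109 treatment reads in a peak of 3700 bp over intron 1, and a weaker one behind the gene with 3.90. Cdx1 had 4.29 with 75.4 treatment and 36.4 input reads at its TSS, the second lowest best value of the 52 genes. Cdx4, on the X chromosome, was the only one of the 53 genes without an assigned peak. The peak nearest to it was 265347 bp away and was assigned to Gm5126. Evx2, which lies beside the HoxD cluster, had the highest value of the group, 10.8, over its last coding exon, and a peak in intron 1 with 7.76.

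**Figure D4:**
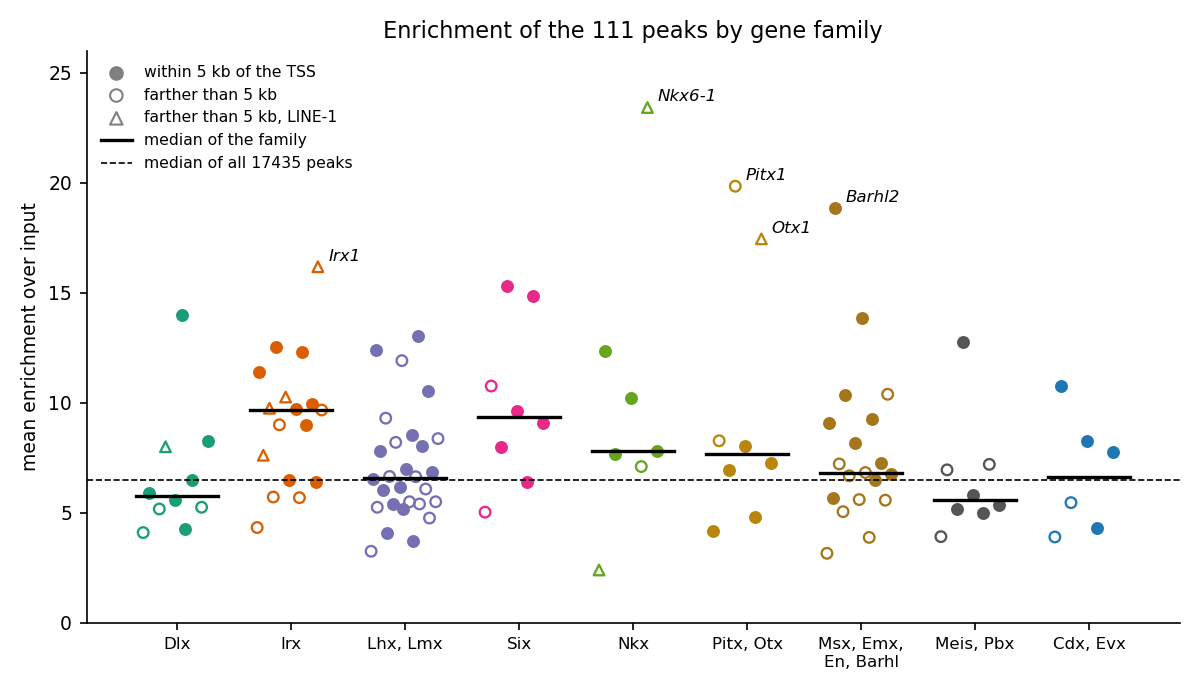
Each point is 1 of the 111 peaks and the vertical axis is the authors' mean enrichment over input (linear scale). Filled circles are within 5 kb of the TSS, open circles farther away, and open triangles farther away in a LINE-1 element, and horizontal bars are family medians. The dashed line is the median of all 17435 peaks, 6.5, and the Irx (9.67) and Six-family (9.36) medians are above it, with Dlx (5.74) and Meis and Pbx (5.57) below.

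Of the 111 peaks, 48 were centred more than 5 kb from the TSS, and 15 of these more than 100 kb. The share within 5 kb was 56.8%, near the 61.4% of all peaks. The most distant were 3 peaks behind Irx1, at 535223, 505173 and 471923 bp, with enrichments of 7.61, 9 and 16.2. An assignment over such a distance only names the closest start site. LINE-1 elements, transposons with many copies in the genome, were the annotation of 8 distant peaks, which were 3 of Irx1, 2 of Nkx6-1 and 1 each of Irx2, Otx1 and Dlx6. Their median enrichment was 10.0, against 5.70 for the other 40 distant peaks, and their median input was 9 reads against 14.9. LINE-1 peaks of the whole list did not run high, with a median enrichment of 5.30 and 13.7 input reads over all 2483. LINE-1 peaks were 7.21% of the peaks of the homeobox genes and 14.2% of the whole list, so they were not more frequent here. The L1Md_T windows of Otx1 and Irx1 shown above were near copies of one another. Between their outer CAGGTG matches, about 100 bases apart, they differed by 4 edits (96.1% identity), and that of Nkx6-1 differed from the Otx1 window by 19 edits (81.6%). Since reads were required to align uniquely, how far such copies lose or share reads was not tested.

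Over all peaks of the homeobox genes, CACCTG on either strand was about as frequent per peak as elsewhere in the list, but less dense. It was in 93 of the 111 peaks (83.8%), against 82.1% of all peaks and 85.7% of peaks of like length (within 10%). Per kb there were 0.953 matches, against 1.19 in all peaks. For promoter peaks alone, 81.0% held a match, against 88.5% of promoter peaks of like length, and there were 0.788 matches per kb, against 1.01. The longer Zeb1 motif of 8 letters, searched as CNCACCTG, CNTACCTG, TNCACCTG and TNTACCTG on both strands, was in 73.9%, against 76.8% of all peaks and 81.2% of peaks of like length. Of these forms, CNCACCTG and TNCACCTG contain CACCTG. Of the 24 peaks with an enrichment of at least 10, 17 (70.8%) held CACCTG, against 86.7% of all peaks at that level. Peaks without a match included those of Pitx1, Barhl2, Emx2 and Pbx3 with the high enrichments given above. The gene with the most matches per kb was Dlx4 (2.50), followed by Six5 (2.26), Irx1 (2.21) and Lmx1b (2.12). In RefSeq promoters, from 250 bases before to 50 after the TSS, 40 of the 53 genes had an entry, and 9 of their 49 promoters (18.4%) held CACCTG, against 20.2% of all 32851. Per gene the homeobox genes thus had more listed peaks than genes at large, with close peaks not merged. Near the TSS their peaks were wider. Their density of E-boxes was not higher, and long peaks were shared with the related lists.

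The deposited values are means over libraries that cannot be separated, so peaks near one another in enrichment could not be ordered beyond error. The list names 1 gene per peak, which left promoter peaks of Evx1 and Lmx1b under other names.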

How the data were processed

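Zeb1 ChIP-seq was analysed from the peak list the authors deposited. Per the methods and the labels, the authors trimmed Ion Torrent reads, checked them with FastQC 0.11.2, drew equal numbers per library, aligned them uniquely to mm10 with STAR 2.4.2a, removed duplicates with Picard 1.136, called peaks per ChIP library against the input, unified those in at least 2 of 3 libraries, recounted reads, averaged the values and annotated peaks with HOMER 4.7. The deposited read columns are thus a signal, mean reads per peak, and the deposited enrichment is a ratio to the input as normalized by the authors, at the median 2.07 times the ratio of the deposited mean reads, a factor whose source was not tested. The sign of the distance to the TSS was read as positive downstream, as found in the reference but opposite to the authors' legend, and 98 of the 111 distances were within 100 bp of it. Genes (matched by Entrez ID) and sequence came from RefSeq on GRCm38.p6, the assembly of mm10. Overlap, motif and composition steps were tested on simulated data. Every gene of the list is accounted for, and genes described in full were those highest and lowest in enrichment, with the most, longest, deepest or farthest peaks, without a peak, or in linked pairs. Members and lists were chosen with earlier results of these data known. No test was made, since the list has no value per library. Alternatives were stricter enrichment, other distance limits, flanks, merging and motif windows. RNA-seq was not used here. Python 3.11.15, NumPy 2.4.6, pandas 2.3.3, pysam 0.24.0, SciPy 1.17.1 and matplotlib 3.10.9 were used.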

Additional observations from a re-analysis of the deposited data

How the results depend on the processing

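Of 38 alternative settings, 21 left a count within 1.5 times its value, or a median or share within its 95% binomial interval. At an enrichment of at least 10, 20 genes had an assigned peak (9.95% of all protein-coding genes did) and 15 a promoter peak (6.38%), with 24 assigned peaks and 22 peaks over the loci. At that limit the medians were 12.5 for enrichment (12 in all peaks), 63.6 for treatment reads (57.1) and 57.9% for GC (56.9%), and CACCTG was in 70.8% of peaks (86.7%). With promoter peaks alone the medians were 73.8 treatment reads, 3000 bp and 58.0% GC. The median enrichment was 3.36 as treatment reads plus 1 over input reads plus 1 (3.00 in all peaks), with the cause not tested, and 8.45 for the best peak per gene (7.10), where 7.10 was reported (6.50). GC was 61.2% in the 500 bp at the peak centre (62.8% in all peaks). CACCTG was in 63.1% of peaks on the forward strand alone and in 21.6% of the 200 bp at the centre, and the 8-letter motif was in 73.9%, with 61.9%, 21.8% and 76.8% in all peaks. With a promoter limit of 1 kb, 32 genes had a promoter peak (41.1% of all genes). Leaving out LINE-1 peaks, chosen after seeing the data, gave a median enrichment of 6.94 (6.58). No paired analysis was possible because the groups share fewer than 2 replicate numbers and the list has no value per library, and for the same reason no library could be left out.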
